A study of Mus musculus with 4 samples.

Results

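Alpha-1 antitrypsin is a serpin that circulates in plasma and blocks neutrophil elastase, the protease that degrades lung elastin, and inherited deficiency of it in people leads to early emphysema. Hepatocytes make most of it and secrete it into the blood, while macrophages and lung epithelium make smaller amounts. Mice carry several near-identical copies of the gene, Serpina1a to Serpina1e, side by side on chromosome 12, and the copies differ most in the reactive centre loop, the exposed stretch that a protease cleaves and is trapped on. The probes described here are those that the array files name Serpina1a, Serpina1b, Serpina1c, Serpina1d or Serpina1e, which gives 5 of 26782 named genes and 7 of 56605 distinct probes. These genes were chosen by the large signal differences that earlier results on these arrays gave for Serpina1a and Serpina1c, so every value of theirs below is a description with no test.

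Lungs of C57BL/6J mice gave the RNA of 4 arrays, Agilent 1-colour designs, named ORX/PPE, sham/PPE, ORX/PBS and sham/PBS. ORX was read as orchiectomy and PPE as porcine pancreatic elastase, since the title of the series names testosterone deficiency and an elastase model of emphysema, and PBS is the saline given to the controls. ORX/PPE mice had ORX and inhaled PPE, sham/PPE mice a sham operation and inhaled PPE, ORX/PBS mice ORX and inhaled PBS, and sham/PBS mice a sham operation and inhaled PBS, with sampling at 3 weeks. Every array held a pool from 5 mice, and age was not given. A difference between groups therefore has no replicate check.

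The arrays carried lung RNA by their markers: the 6 alveolar type 2 cell genes, 4 alveolar type 1 cell genes and 3 club cell genes listed were well above background on every array, with summed alveolar type 2 levels of 1478 (ORX/PPE), 1552 (sham/PPE), 1341 (ORX/PBS) and 1408 (sham/PBS) times each array's 75th percentile. That percentile was 621.5 in ORX/PPE, 591.7 in sham/PPE, 715.1 in ORX/PBS and 618.5 in sham/PBS, in linear intensity units, and between 40636 and 42649 probes per array were well above background. The lowest such signal was between 9.52 and 10.8, while the 308 negative control spots of each array had medians of 2.07 to 2.37. Sham/PPE stood apart from the other 3 arrays in markers of some other tissues, and the source of that RNA was not tested. The 4 spermatid genes summed to 0.170 in ORX/PPE, 3.70 in sham/PPE, 0.168 in ORX/PBS and 0.171 in sham/PBS, in multiples of the 75th percentile. The 8 cardiomyocyte markers summed highest in sham/PPE, at 226, and lowest in ORX/PPE, at 40.4, against 83.6 in ORX/PBS and 102 in sham/PBS. Of the comparisons below, PPE in sham mice and ORX under PPE rest on the sham/PPE array. No second array of its group exists to give them without it. PPE in ORX mice and ORX under PPE likewise rest on ORX/PPE.

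The 7 probes fell into sets by the letters they share, and the sets are shown because the values below split along them. Probe positions follow the array files (build mm9, chromosome 12, minus strand). The files give each probe's first base in a transcript but no exon or UTR. Probes for Serpina1a (chr12:105091819-105091878, from base 1565), Serpina1c (chr12:105133165-105133224, from base 1335) and Serpina1e (chr12:105185172-105185231, from base 1283) share a run of 29 bases, in capitals below with 1 base before it.
Serpina1a, base 1565: tGTCATCCTTCCTTCTGAATTGGGTTCCTT
Serpina1c, base 1335: tGTCATCCTTCCTTCTGAATTGGGTTCCTT
Serpina1e, base 1283: aGTCATCCTTCCTTCTGAATTGGGTTCCTT

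Over their whole length the Serpina1a and Serpina1c probes of this set had 1 mismatch in 51 overlapping bases, the Serpina1c and Serpina1e probes 10 in 59, and the Serpina1a and Serpina1e probes 11 in 50. The array's own annotation matches the Serpina1c probe to 3 genes, Serpina1a, Serpina1b and Serpina1c, and the Serpina1d probe to Serpina1d and Serpina1b. Which paralog gave the signal of such a probe cannot be told apart here.

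A run of 16 bases is shared by the other Serpina1a probe (chr12:105091979-105092038, from base 1405), the Serpina1b probe (chr12:104966520-104966579, from base 1211) and the other Serpina1e probe (chr12:105185280-105185339, from base 1175). As background, this stretch encodes part of the reactive centre loop and what follows it. The run is in capitals.
Serpina1a, base 1405: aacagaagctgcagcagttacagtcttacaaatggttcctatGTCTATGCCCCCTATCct
Serpina1b, base 1211: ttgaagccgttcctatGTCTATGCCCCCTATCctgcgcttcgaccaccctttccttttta
Serpina1e, base 1175: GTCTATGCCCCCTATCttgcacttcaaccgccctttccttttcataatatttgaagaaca

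The Serpina1a and Serpina1b probes of this set had 5 mismatches in 34 overlapping bases, and the Serpina1b and Serpina1e probes 5 in 44. The Serpina1d probe (chr12:105002930-105002989, from base 1045) shares neither run.
Serpina1d, base 1045: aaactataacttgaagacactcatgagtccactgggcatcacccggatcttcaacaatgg

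No probe of any other gene on the array shared 20 bases with one of these 7.

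The promoters of the 5 genes are close copies of each other too, and they are shown because the genes are set side by side below. Windows of 84 bases that end before the RefSeq start of each gene (assembly GRCm38.p6, minus strand) line up without gaps, and capitals mark the 10 positions at which they differ.
Serpina1a, chr12:103863627-103863710: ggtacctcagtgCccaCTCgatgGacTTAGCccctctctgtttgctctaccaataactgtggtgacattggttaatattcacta
Serpina1b, chr12:103738202-103738285: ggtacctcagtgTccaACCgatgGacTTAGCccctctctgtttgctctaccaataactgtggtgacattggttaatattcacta
Serpina1c, chr12:103904964-103905047: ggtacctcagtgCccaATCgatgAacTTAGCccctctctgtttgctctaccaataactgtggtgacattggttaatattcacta
Serpina1d, chr12:103773636-103773719: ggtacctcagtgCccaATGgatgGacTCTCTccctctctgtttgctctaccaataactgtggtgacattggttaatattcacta
Serpina1e, chr12:103956962-103957045: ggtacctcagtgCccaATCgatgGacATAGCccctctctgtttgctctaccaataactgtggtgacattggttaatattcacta

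Any pair of these windows was identical at 77 to 82 of 84 bases, and Serpina1d differed from the others at 6 or 7 of them.

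On all arrays the Serpina1 probes were dim for this tissue, with signals between 3.33 and 236 against a 75th percentile of 591.7 or more. The Serpina1a probe at base 1565 had the widest spread, with a processed signal of 23.3 ± 3.27 in ORX/PPE, 236 ± 23.7 in sham/PPE, 90.6 ± 9.28 in ORX/PBS and 51.7 ± 5.63 in sham/PBS. The error of each signal is that of 1 spot by the scanner's model and holds nothing of the spread between mice. Sham/PPE was the brightest of the 4 and ORX/PPE the dimmest, with both PBS arrays between them.

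The Serpina1c probe had 24.5 ± 3.41 in ORX/PPE, 197 ± 19.9 in sham/PPE, 75.4 ± 7.83 in ORX/PBS and 51.3 ± 5.64 in sham/PBS. The Serpina1e probe at base 1283 had 23.2 ± 3.45, 181 ± 18.3, 59.5 ± 6.35 and 39.8 ± 4.71 on the same arrays in that order. These probes ran in the same order as the Serpina1a probe, sham/PPE, ORX/PBS, sham/PBS and ORX/PPE from high to low. Given the letters they share, the 3 are not independent readings of 3 genes.

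Probes over the reactive centre loop spread less. The Serpina1e probe at base 1175 had 34.0 ± 4.07 in ORX/PPE, 94.8 ± 9.74 in sham/PPE, 64.2 ± 6.72 in ORX/PBS and 62.1 ± 6.56 in sham/PBS. The Serpina1b probe had 119 ± 12.2, 175 ± 17.7, 175 ± 17.7 and 158 ± 16 on those arrays, the flattest of the probes above background on all 4. For it, sham/PPE and both PBS arrays lay within the scanner's error of each other, and ORX/PPE was the lowest.

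The remaining probes came down to the detection limit. The Serpina1a probe at base 1405 had 10.5 ± 2.71 in ORX/PPE, not well above background there, 27.0 ± 3.69 in sham/PPE, 14.4 ± 2.63 in ORX/PBS and 14.6 ± 2.82 in sham/PBS. The Serpina1d probe had 6.85 ± 2.84 in ORX/PPE and 3.33 ± 2.71 in sham/PBS, neither well above background, with 19.7 ± 3.40 in sham/PPE and 12.6 ± 3.08 in ORX/PBS. Both were highest in sham/PPE, and Serpina1d was measured on that array and ORX/PBS only, a pair that no comparison sets against each other. Altogether 5 of the 7 probes were well above background in ORX/PPE, 7 in sham/PPE, 7 in ORX/PBS and 6 in sham/PBS.

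**Figure D1:**
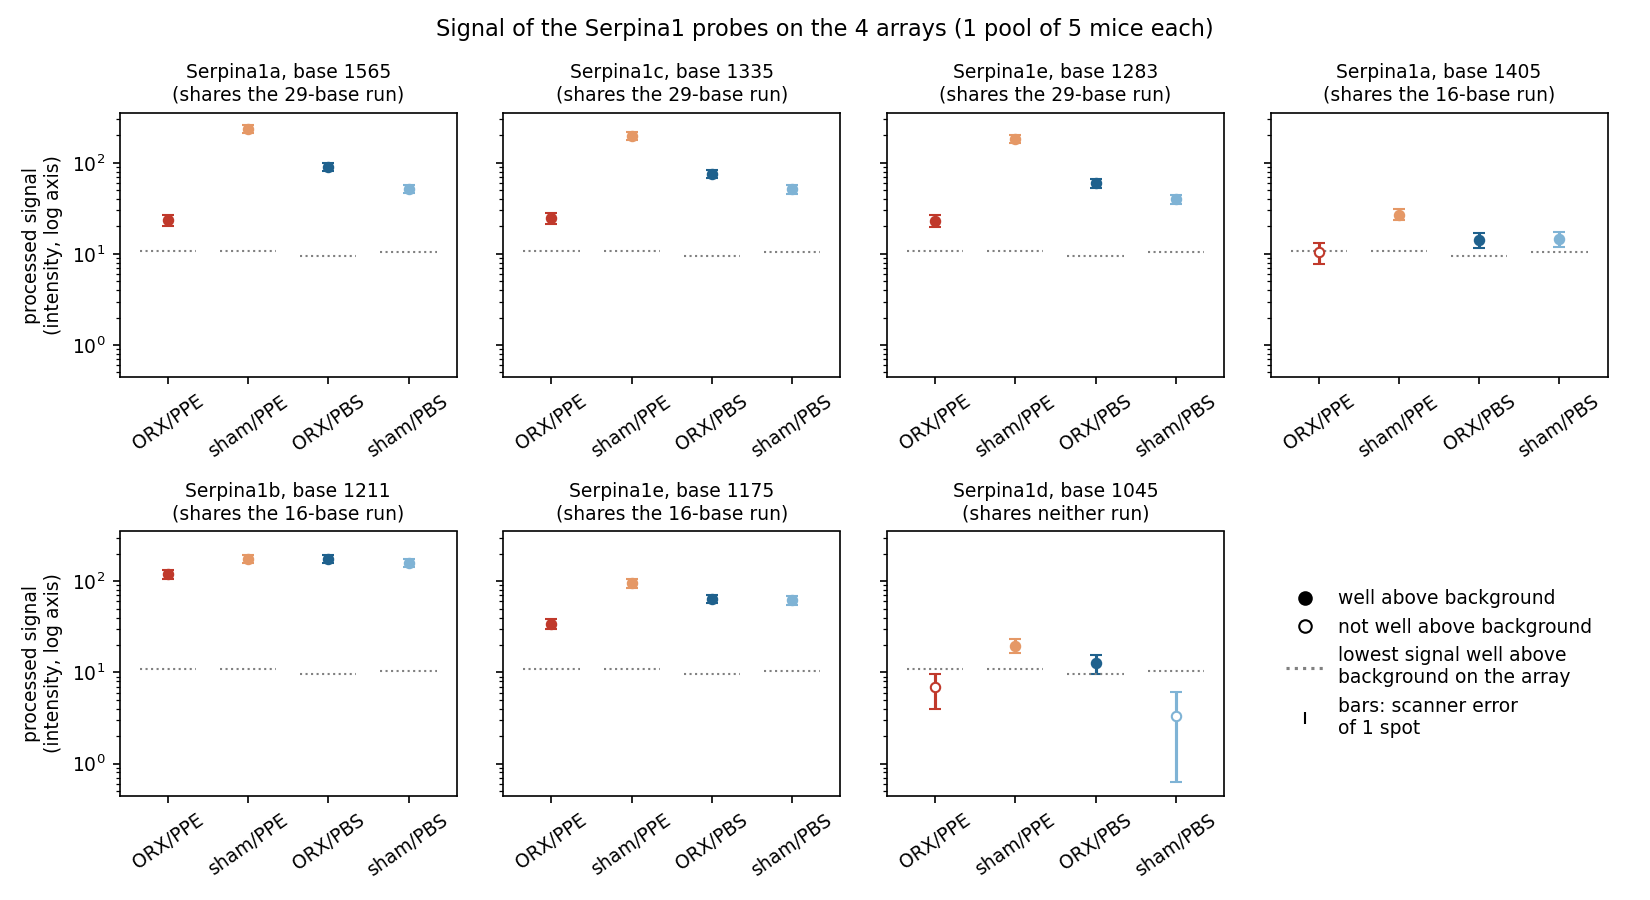
Processed signal (linear intensity, log axis) of the 7 Serpina1 probes on the ORX/PPE, sham/PPE, ORX/PBS and sham/PBS arrays, 1 pool of 5 mice each, with the scanner's error of 1 spot as bars, open circles where a probe was not well above background and dotted lines at the lowest signal well above background. Every probe is lowest in ORX/PPE except Serpina1d, whose lowest signal is in sham/PBS, and the 3 probes that share the 29-base run span the widest range.

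Under PPE, ORX lungs held less Serpina1 signal than sham lungs. On the log2 scale, after each array's 75th percentile was subtracted, the Serpina1a probe at base 1565 was at -3.41 ± 0.25, a 10.6-fold lower level in ORX. The Serpina1c probe was at -3.08 ± 0.25, or 8.44-fold lower, and the Serpina1e probe at base 1283 at -3.03 ± 0.26, or 8.19-fold lower. The loop probe of Serpina1e was at -1.55 ± 0.23, that of Serpina1a was at least 2.62-fold lower by the bound that the dimmer array allows, and Serpina1b was at -0.63 ± 0.21. Errors of these differences combine those of the 2 spots. Counting that bound, 5 probes were at least 2-fold lower and 0 higher, Serpina1b passed neither threshold, and Serpina1d was dim in ORX/PPE with no fold. Of all 42092 probes tested, 1.17% were at least 2-fold lower in this comparison and 0.368% higher. The median over the 5 Serpina1 probes measured on both arrays was -3.03, against -0.01 over all probes. With normexp background correction, which pulls dim signals together, that median was -1.62 and the count 3, and with no filter on dim probes the median over all 7 was -1.59.

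In sham mice, PPE lungs held more Serpina1 signal than PBS lungs. The Serpina1a probe at base 1565 was 2.25 ± 0.21 higher, the Serpina1e probe at base 1283 was 2.25 ± 0.22 higher and the Serpina1c probe 2.01 ± 0.22 higher. Over the loop, the differences were 0.95 ± 0.34 for Serpina1a, 0.67 ± 0.21 for Serpina1e and 0.22 ± 0.21 for Serpina1b, none of them past 2-fold. So 3 probes passed 2-fold upwards and 0 downwards, where 1.18% of all 42348 probes passed it upwards and 0.593% downwards. The median over 6 measured probes was 1.48, against 0.01 over all probes, and 0.88 with normexp.

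In ORX mice, the direction was the opposite, and PPE lungs held less Serpina1 signal than PBS lungs. The Serpina1a probe at base 1565 was at -1.75 ± 0.25, the Serpina1c probe at -1.42 ± 0.25 and the Serpina1e probe at base 1283 at -1.16 ± 0.26. The loop probes of Serpina1e and Serpina1b were at -0.71 ± 0.23 and -0.35 ± 0.21. In this comparison 3 probes were at least 2-fold lower and 0 higher, where 0.38% of all 43203 probes were at least 2-fold lower and 0.704% higher. The median over 5 measured probes was -1.16, against 0 over all probes to 2 decimals. Normexp ended these calls: 0 of the probes passed 2-fold, and the Serpina1a probe at base 1565 was at -0.70, the Serpina1c probe at -0.47 and the Serpina1e probe at base 1283 at -0.32.

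Under PBS, ORX and sham lungs differed by less than 2-fold at each Serpina1 probe measured on both arrays. The Serpina1a probe at base 1565 was at 0.60 ± 0.22, the Serpina1e probe at base 1283 at 0.37 ± 0.23 and the Serpina1c probe at 0.34 ± 0.22. The loop probes lay at -0.06 ± 0.21 for Serpina1b, -0.16 ± 0.21 for Serpina1e and -0.23 ± 0.38 for Serpina1a. No probe passed 2-fold either way, where 0.687% of all probes were at least 2-fold higher and 1.26% lower. The median was 0.14 over 6 probes, 3 above 0 and 3 below.

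**Figure D2:**
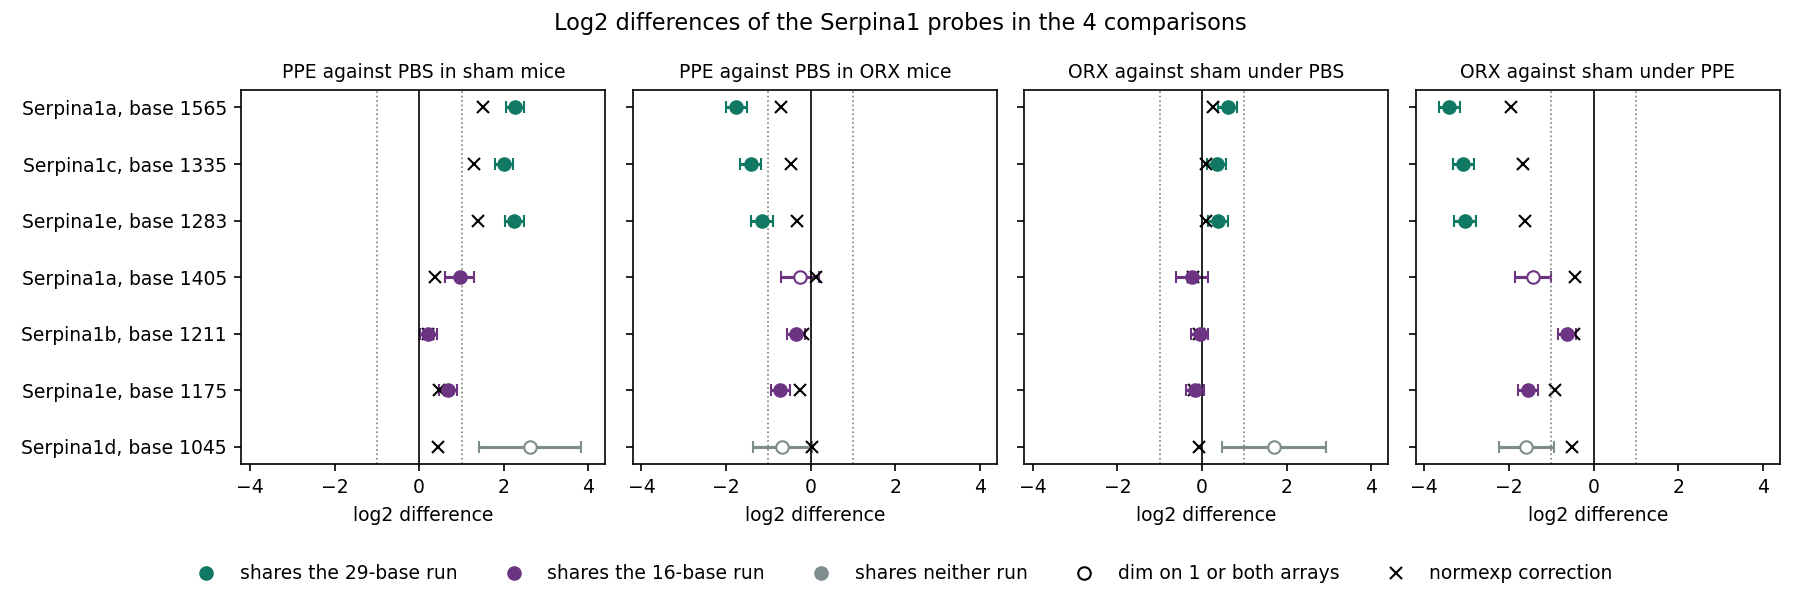
Log2 difference of each Serpina1 probe in the 4 comparisons, with the scanner's error of the difference as bars, open circles where a probe was dim on 1 or both arrays, black crosses for normexp and dotted lines at 2-fold. The 3 probes that share the 29-base run lie between -3.41 and -3.03 for ORX under PPE and between 2.01 and 2.25 for PPE in sham mice, while Serpina1b stays within 2-fold in all 4.

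The comparisons of PPE in the 2 surgeries share no array. The PPE difference in ORX mice minus that in sham mice was -4.01 for the Serpina1a probe at base 1565, -3.42 for Serpina1c, -3.41 for the Serpina1e probe at base 1283, -1.39 for the Serpina1e loop probe and -0.57 for Serpina1b. Over all 38638 probes above background on every array, this quantity had a median of -0.02 and ran between -0.65 and 0.74 from the 5th to the 95th percentile. The loop probe of Serpina1b thus lay within that range and the other 4 below it, and with 1 array a group the difference was not tested. The median of the 5 was -3.41, and -1.72 with normexp.

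**Figure D3:**
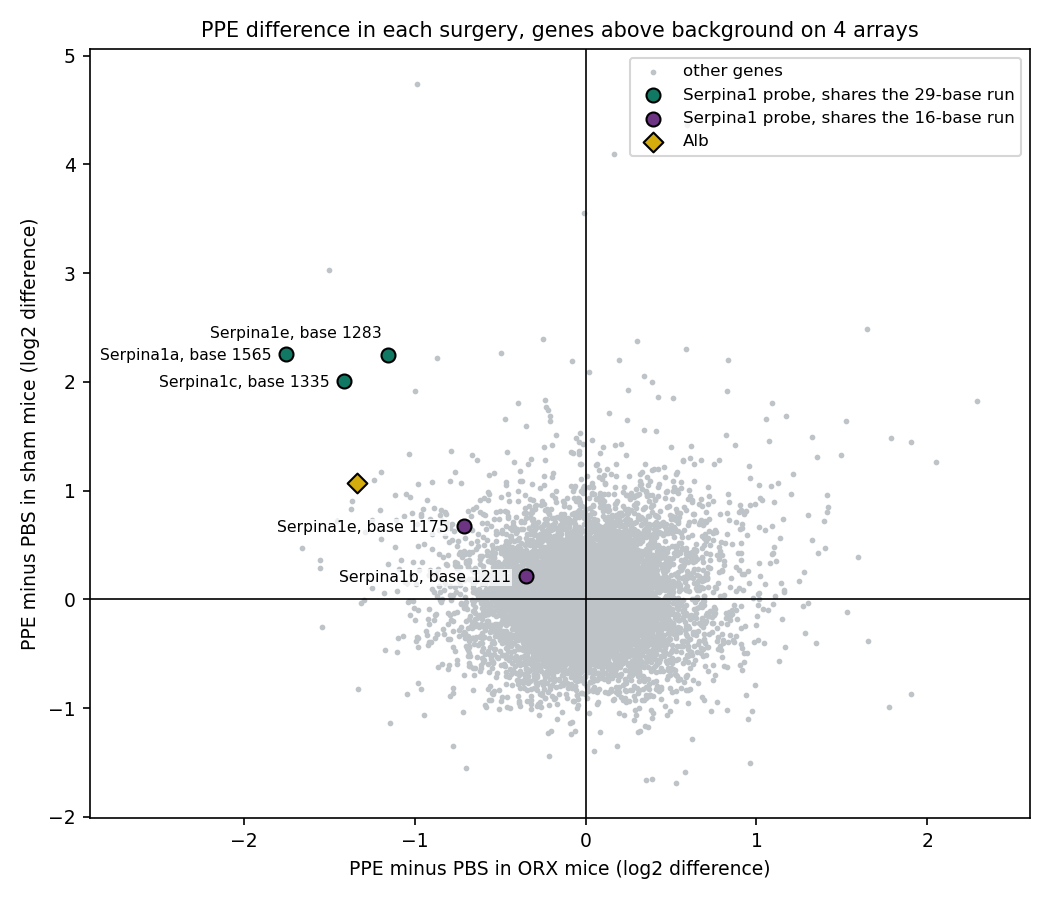
PPE minus PBS in ORX mice (horizontal axis, log2 difference) against PPE minus PBS in sham mice (vertical axis, log2 difference), 1 grey point per gene by its brightest probe for genes well above background on all 4 arrays, with the Serpina1 probes and Alb marked. The marked probes lie to the upper left, with Serpina1a at -1.75 and 2.25 at the far end and Serpina1b at -0.35 and 0.22 near the centre.

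Of 19 neighbours of Serpina1 on chromosome 12, which include the Serpina3 paralogs that inhibit chymotrypsin-like proteases, 15 were measured. With PPE, 0 of them passed 2-fold in ORX or in sham mice, where 0.655% of all genes by their brightest probe passed it upwards and 0.387% downwards in ORX mice, and 1.33% upwards and 0.379% downwards in sham mice, and their medians were 0.00 and 0.15. Between ORX and sham, 4 were at least 2-fold lower under PPE and 2 under PBS, where 1.45% and 1.16% of all genes were and 0.297% and 0.635% were higher, with medians of -0.34 and -0.38. Serpina3i was at -1.83 ± 0.23 under PPE and -1.63 ± 0.22 under PBS, and Serpina3f at -1.21 ± 0.21 and -1.14 ± 0.21. Serpina3m and Serpina3k were the others past 2-fold under PPE, at -1.26 ± 0.20 and -1.20 ± 0.23. Serpina1f, the next member of the family by name, was at -0.07 for ORX under PPE, -0.75 with PPE in sham mice, -0.18 with PPE in ORX mice and under PBS -0.64 for ORX.

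Other plasma proteins of liver followed the Serpina1 pattern in a few members. Of 30 such genes 24 were measured for ORX under PPE, with a median of -0.29 and 3 at least 2-fold lower, Alb, Ahsg and Kng1, and Ambp was lower by a bound outside those 24. Alb, serum albumin, had a signal of 52.9 in ORX/PPE, 171 in sham/PPE, 154 in ORX/PBS and 84.9 in sham/PBS. It was at -1.76 ± 0.21 for ORX under PPE, 1.07 ± 0.21 with PPE in sham mice and -1.34 ± 0.21 with PPE in ORX mice. Ahsg, the fetuin of fetal and adult liver, was at -2.20 ± 0.21 for ORX under PPE and 2.27 ± 0.21 with PPE in sham mice, but at -0.50 with PPE in ORX mice. Kng1, the kininogen, was at -1.12 ± 0.21 and 1.25 ± 0.21 in the first 2 of these and -0.03 in the third. Ambp, the precursor of bikunin, was at least 2.01-fold lower for ORX under PPE and at least 2.09-fold higher with PPE in sham mice. Fgg, the fibrinogen gamma chain, was at -0.37 for ORX under PPE and 1.40 ± 0.21 higher with PPE in sham mice. With PPE in sham mice 4 of 26 measured plasma protein genes were higher and 0 lower, with Ambp higher by its bound besides, and with PPE in ORX mice 1 of 24 was lower, Alb, and 1 higher by its bound, Apoa1. For ORX under PBS 0 of 26 passed, and the 4 medians were -0.29, 0.11, -0.07 and -0.02 in the order of these comparisons. Over all genes by their brightest probe, 1.45% were lower for ORX under PPE and 1.33% higher with PPE in sham mice. With PPE in ORX mice 0.387% were lower and 0.655% higher, and for ORX under PBS 1.16% were lower and 0.635% higher.

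Enzymes of hepatocytes held fewer calls. Of 16, 10 were measured for ORX under PPE, with a median of -0.21 and 1 at least 2-fold lower, Otc of the urea cycle, at -1.28 ± 0.34. With PPE, Otc was at -0.57 in ORX mice and 1.15 ± 0.32 in sham mice. Hpd and Cyp7a1, enzymes of tyrosine and bile acid metabolism, were not well above background on any array. The 14 hepatocyte markers summed to 8.46 in ORX/PPE, 9.49 in sham/PPE, 9.34 in ORX/PBS and 6.18 in sham/PBS, with 9, 10, 9 and 10 of them well above background and the defining marker Ttr at background on all 4. Those sums mostly follow Apoa2 and Cyp2e1, by far the brightest, at 2219 and 2256 in sham/PPE. Gene by gene, the median was -0.43 for ORX under PPE, with 2 lower, Alb and Ahsg. With PPE in sham mice it was 0.68, with 3 higher. Major urinary proteins, secreted by liver under androgen control, had 11 of 15 listed members on the array: counting bounds, for ORX under PPE 8 were at least 2-fold lower, and with PPE in sham mice 6 were higher. With PPE in ORX mice 1 was lower. For ORX under PBS 7 were lower, where the Serpina1 probes had 0. Over all genes 1.45% were lower for ORX under PPE, 1.33% higher with PPE in sham mice, 0.387% lower with PPE in ORX mice and 1.16% lower for ORX under PBS.

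Markers of heart muscle had the directions of the Serpina1 probes in both comparisons of PPE and for ORX under PPE. The 8 cardiomyocyte markers, all well above background on every array, summed to 40.4 in ORX/PPE, 226 in sham/PPE, 83.6 in ORX/PBS and 102 in sham/PBS. Their medians were -2.16 for ORX under PPE, with 8 lower, 0.77 with PPE in sham mice, with 2 higher, -0.99 with PPE in ORX mice, with 3 lower, and -0.25 for ORX under PBS, with 0. The shares of all genes called in those directions were 1.45%, 1.33% and 0.387% in the first 3 of these. The 5 brown fat markers summed to 3.88, 18.0, 5.20 and 6.78 in ORX/PPE, sham/PPE, ORX/PBS and sham/PBS, with Elovl3 at background on all 4. Over 3 measured brown fat markers the median was -1.92 for ORX under PPE, 0.91 with PPE in sham mice and -0.08 with PPE in ORX mice, where 0 were called and the Serpina1 median was -1.16. Outside those medians, Ucp1 had signals of 9.29 in ORX/PPE, 2082 in sham/PPE, 14.5 in ORX/PBS and 10.3 in sham/PBS. By its bounds it was at least 202-fold lower for ORX under PPE and at least 210-fold higher with PPE in sham mice. Counting Ucp1, 3 brown fat markers were lower for ORX under PPE and 2 higher with PPE in sham mice. No marker of pancreatic acinar cells or kidney tubule was called in any comparison. The part of these tissues in the Serpina1 result was not tested. In pooled tissue, fewer cells of a type and less RNA per cell cannot be told apart.

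**Figure D4:**
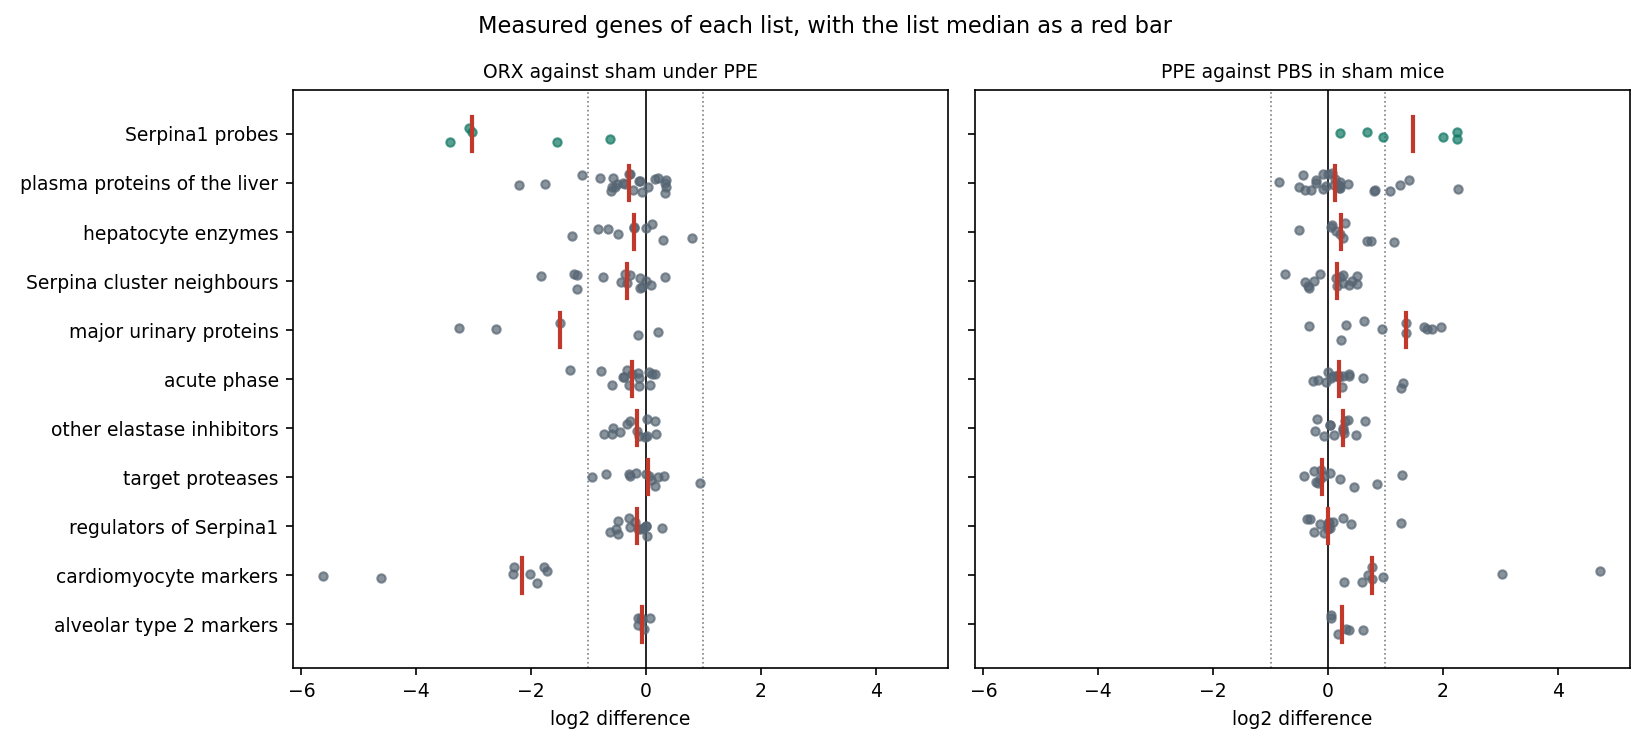
Log2 differences of the measured genes in 10 lists and of the Serpina1 probes, 1 point per gene or probe, for ORX against sham under PPE (left) and PPE against PBS in sham mice (right), with the median as a red bar and dotted lines at 2-fold. For ORX under PPE the Serpina1 median is -3.03 and the cardiomyocyte median -2.16, while that of the plasma proteins of the liver is -0.29.

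Of 15 listed proteases, which include elastases and the metalloproteinases Mmp9 and Mmp12, 12 were measured. Their medians were 0.03 for ORX under PPE, -0.10 with PPE in sham mice, -0.21 with PPE in ORX mice and under PBS 0.03 for ORX. Elane, neutrophil elastase itself, was at -0.27, 0.04, -0.18 and -0.05 in these comparisons. The gelatinase Mmp9 was 1.28 higher with PPE in sham mice and the macrophage elastase Mmp12 1.42 higher with PPE in ORX mice. These were the only calls of this list. Of all genes by their brightest probe, 1.33% were higher with PPE in sham mice and 0.655% with PPE in ORX mice. The 7 neutrophil markers summed to 169 in ORX/PPE, 240 in sham/PPE, 140 in ORX/PBS and 112 in sham/PBS, and the 6 alveolar macrophage markers to 168, 138, 101 and 67.9. By these sums neutrophil markers were highest in sham/PPE too, with 6 of 7 at least 2-fold higher with PPE in sham mice. Their other calls were Cxcr2, at -1.05 for ORX under PPE, and S100a8, at 1.14 for ORX under PBS. Of all genes, 1.45% were lower and 0.635% higher in those 2 comparisons, in that order. Macrophage markers summed highest in ORX/PPE, a sum led by Chil3, the brightest of them. With PPE 3 of 6 were at least 2-fold higher in sham mice and 2 in ORX mice. For ORX 2 were higher under PBS and 0 under PPE. Shares of all genes called higher were 1.33%, 0.655%, 0.635% and 0.297% in that order. A link of these markers to the Serpina1 signal was not tested.

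Of 15 other inhibitors of elastase 13 were measured, and 0 passed 2-fold in any of the 4 comparisons. Between 0.297% and 1.45% of all genes passed in a given direction, so 0 of 13 is near that background. Their medians were -0.15 for ORX under PPE, 0.26 with PPE in sham mice, -0.12 with PPE in ORX mice and under PBS 0.05 for ORX. Slpi, the secretory leukocyte protease inhibitor of airway epithelium, was at -0.02, 0.64, -0.13 and 0.75 in that order. Acute phase genes, the class to which alpha-1 antitrypsin belongs in people, had medians of -0.23, 0.18, -0.02 and 0.01. Saa3, a serum amyloid A made outside liver, was 1.31 higher with PPE in sham mice and 1.35 higher with PPE in ORX mice, so it went the same way in both surgeries. Lcn2 was 1.28 higher with PPE in sham mice but only 0.68 higher, below 2-fold, with PPE in ORX mice. Hamp, which encodes the iron hormone hepcidin, was at -1.32 for ORX under PPE and -1.32 with PPE in ORX mice. Saa2 was at -1.17 for ORX under PBS. These were the only calls of the list. Of 16 measured, 2 were higher with PPE in sham mice, against 1.33% of all genes. With PPE in ORX mice 1 of 15 was higher and 1 lower, against 0.655% and 0.387%. For ORX, 1 was lower under PPE and 1 under PBS, against 1.45% and 1.16%.

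Transcription factors and cytokines known to act on Serpina1 in liver or macrophages showed 1 call in 18 genes. Nr1h4, the bile acid receptor FXR, was 1.28 ± 0.28 higher with PPE in sham mice, at dim signals of 40.6 in sham/PPE and 17.5 in sham/PBS. Hnf4a was not well above background on any array. Cebpa was at -0.48 for ORX under PPE, 0.40 with PPE in sham mice, -0.06 with PPE in ORX mice and under PBS -0.02 for ORX, and Cebpb was at -0.05, -0.32, 0.38 and -0.75. Il6, which induces acute phase genes, was at -0.63, 0.03, -0.02 and -0.59. The 18 genes of secretion and quality control include Lman1, the cargo receptor that carries alpha-1 antitrypsin out of the endoplasmic reticulum. They held 0 calls, also near background, with medians of -0.18, 0.10, -0.04 and -0.08.

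Genes whose profile over the 4 arrays lay nearest to the mean of the 5 Serpina1 probes were found by the Euclidean distance of centred log2 values. The search covered 15871 genes above background on every array. It left out the Serpina1 genes, clone or locus numbers, and olfactory or vomeronasal receptors. The mean Serpina1 profile was -1.07 in ORX/PPE, 1.27 in sham/PPE, 0.01 in ORX/PBS and -0.21 in sham/PBS. The nearest 10 were Tmem45b, at a distance of 0.25, Hand2os1, Lrrc10, Cox8b, Kcnj3, Sln, Smpx, Tnni3k, Sfrp5 and Myom2, at 0.47. Tmem45b had signals of 63.6 in ORX/PPE, 289 in sham/PPE, 126 in ORX/PBS and 117 in sham/PBS. Sln, sarcolipin of atrial muscle and one of the cardiomyocyte markers above, had 3571 in ORX/PPE, 16752 in sham/PPE, 8897 in ORX/PBS and 9006 in sham/PBS. The Serpina1 probes themselves lay at 0.54 to 1.26 from their mean, farther than these 10 genes, and likeness over 4 arrays rests on 4 points.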

How the data were processed

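The file headers give Feature Extraction 10.7.1.1 as the scanner software, while the submitters' processing notes name version 9.5.1.1. Per the file headers, the processed signal is a linear intensity after background subtraction, with arrays not normalized to each other. The deposited mean and local background signals, used for normexp, are intensity values as well, and the marks for background, saturation and outliers are 0 or 1. The deposited value table holds intensity values on an unstated scale. Each of its columns had a median of 71.5, its correlation with the processed signal was 0.9998 or more in log2, and genes were not centred.

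Control and outlier spots (31 to 54 of 59305 an array) were left out, repeated spots were averaged, and the 75th percentile of the array was subtracted after log2. Calls needed a signal well above background in both groups and a 2-fold difference. Where 1 of the 2 signals was dim, a bound used the higher of the dim probe's signal and the lowest signal well above background. RefSeq (GRCm38.p6) named 32994 of 56605 probes through their accession, 10224 through the symbol and 520 through a synonym, 2130 kept the file's name and 10737 had none, giving 26782 genes, each read by its brightest probe. Probes spotted at least 8 times had a median SD of at most 0.0363 (log2), or 0.0967 to 0.124 at signals of 10 to 300, which covers spots, not mice. The number of arrays limits precision. There were no tests, because each group was 1 array, on 1 slide and scan.

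The Serpina1 genes and the 20 gene lists were chosen with earlier results of these data known. The text names every Serpina1 probe, up to 4 called members of a list, the 10 nearest genes and members whose role bears on Serpina1. Steps were tested on simulated data and ran in R 4.3.3 with limma 3.58.1 and Python 3.11.15 with numpy 2.4.6 and pandas 2.3.3. Settings tried were quantile normalization, normexp (offset 50), centring on the median, the value table, other filters and a 1.5-fold threshold.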

Additional observations from a re-analysis of the deposited data

Results flagged for a closer look

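For each of the 5 Serpina1 probes above background on every array, the PPE difference was below 0 in ORX mice and above 0 in sham mice. Only the 3 that share the 29-base run passed 2-fold in both, and the Serpina1b difference in sham mice, 0.22 ± 0.21, was about the size of its scanner error. The PPE difference in ORX mice minus that in sham mice was -4.01 for the Serpina1a probe at base 1565, from -1.75 in ORX and 2.25 in sham mice. It was -3.42 for Serpina1c, from -1.42 and 2.01, and -3.41 for the Serpina1e probe at base 1283, from -1.16 and 2.25. The Serpina1e probe at base 1175 gave -1.39, from -0.71 and 0.67, and the Serpina1b probe -0.57, from -0.35 and 0.22. With 1 array a group the difference was not tested. With normexp the median of the 5 was -1.72 in place of -3.41, and 0 probes passed 2-fold with PPE in ORX mice.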

How the results depend on the processing

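Of 58 values of the Serpina1 probes recomputed under other settings, 45 stayed close to those reported, 13 moved and 0 reversed. With normexp the medians were -1.62 for ORX under PPE, 0.88 with PPE in sham mice and -0.32 with PPE in ORX mice, the median difference between the PPE differences was -1.72 in place of -3.41, and 3 probes were at least 2-fold lower for ORX under PPE and 0 with PPE in ORX mice. Over all probes, normexp left 4 higher and 118 lower for ORX under PPE (155 and 491 as reported), 89 and 14 with PPE in sham mice (500 and 251), 19 and 13 with PPE in ORX mice (304 and 164) and 42 and 100 for ORX under PBS (298 and 548). With no filter on dim probes the medians were -1.59, 2.01 and -0.71 in the first 3 comparisons, and 1 probe passed 2-fold for ORX under PBS. With probes above background on all 4 arrays alone, the median with PPE in sham mice was 2.01, since fewer probes enter. At a 1.5-fold threshold 6 probes passed with PPE in sham mice, and under PBS 1 for ORX. Quantile normalization, median centring and the value table left each value close to that reported. The cause of the other shifts was not tested. No paired analysis was possible because each group was 1 array. Signals near 10 set the limit for Serpina1d and for the Serpina1a probe at base 1405.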

Other observations

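Of 19103 genes above background on all 4 arrays, 8 were at least 2-fold lower with PPE in ORX mice and at least 2-fold higher with PPE in sham mice. They were Serpina1a, Serpina1c and Serpina1e, with Alb, the cardiac peptide Nppa, the muscle gene Smpx, the cystatin Cst13 and Lrr1. All were named after their values were seen. The Serpina1 genes were read here by the probes that share the 29-base run, so they are not independent readings. Serpina1e is in this list through its probe at base 1283, which had the higher mean signal only because of sham/PPE, 181 against 94.8. On the other arrays its probe at base 1175 was the brighter. Signals were 34.0 against 23.2 in ORX/PPE, 64.2 against 59.5 in ORX/PBS and 62.1 against 39.8 in sham/PBS. With PPE, the Serpina1e probe at base 1175 stayed within 2-fold, at -0.71 in ORX and 0.67 in sham mice. The Serpina1a probe at base 1405 was at 0.95 in sham mice and was dim in ORX/PPE. Markers of pancreatic acinar cells had medians of -0.02 for ORX under PPE, -0.14 with PPE in sham mice, -0.06 with PPE in ORX mice and under PBS 0.11 for ORX, with 0 of 8 called. Of 4 kidney tubule markers, Kap and Umod were at background on every array, and 0 were called. At most 1.45% of all genes were called in a given direction, so 0 of 8 and 0 of 4 are near that share.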
